A study of Arabidopsis thaliana with 36 samples.

Results

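The aliphatic glucosinolate genes were described here in leaf 6 of *Arabidopsis thaliana*. They were 10 genes chosen by name, each present in the expression table among 19437 genes: the regulators *MYB28* (AT5G61420) and *MYB29* (AT5G07690), the chain elongation genes *BCAT4* (AT3G19710), *MAM1* (AT5G23010) and *MAM3* (AT5G23020, IMS2 in RefSeq), the core structure genes *CYP79F1* (AT1G16410), *CYP79F2* (AT1G16400), *CYP83A1* (AT4G13770) and *SOT18* (AT1G74090), and the side chain gene *FMO GS-OX4* (AT1G62570). RNA was compared between TM1 and TM2, 2 isolates homozygous for the T-DNA alleles atx1 SALK_149002, atx3 GABI_128H01 and atx4 SALK_060156 (a triple mutant, TM, with allele names from the sample labels; the study's primer list gives another GABI line for atx3), and WT Col-0, which carried none of them. The study used the TMs, which bolt early, to ask how leaf gene expression changes at bolting. Leaves were harvested at T0, T2, T4 and T6, on days 25, 27, 29 and 31, from TM plants that had bolted by T0 and from WT plants of the same age, which were vegetative apart from a single plant that had bolted at T6. The ATX genes encode histone methyltransferases that act on lysine 4 of histone H3. Each of the 12 groups was 1 pool of 10 ground leaves divided into 3 libraries. The p-values of fits to libraries therefore measure how libraries of 1 pool vary, which may be technical, and plants were not compared. Permutation tests rearrange libraries of the TM1, TM2 and WT pools of a time point. The fit to pool means measures how pools vary over isolates and time points. Leaf age cannot be told apart from the day of harvest.

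Aliphatic glucosinolates are sulfur-rich defense compounds of the cabbage family that are made from methionine and are broken down by myrosinases when tissue is damaged. The side chain of methionine is first lengthened, by BCAT4, which removes the amino group, and by the methylthioalkylmalate synthases MAM1 and MAM3, which add the carbon. CYP79F1 and CYP79F2 turn the lengthened amino acid into an aldoxime, CYP83A1 oxidizes the aldoxime, the sulfotransferase SOT18 adds the sulfate that completes the core, and FMO GS-OX4 oxidizes the sulfur of the side chain. MYB28 and MYB29 are R2R3-MYB transcription factors that activate these genes, together with basic helix-loop-helix factors of the MYC group. In leaves these compounds are known for deterring chewing insects, and their sulfur can be recovered.

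Because most members moved together over time, the sequence around their gene starts is given for 5 of them. The windows ran from 250 bases before to 50 bases after the annotated start in TAIR10.1 (RefSeq), in the direction of the gene. Capitals mark the letters ACCTACC, an AC element of the kind bound by R2R3-MYB factors, and CACGTG, the G-box bound by MYC factors, on either strand. *BCAT4* (chr3:6849533-6849832, minus strand) and *MAM1* (chr5:7702791-7703090, plus strand) are shown because they had the largest differences between TM and WT of the chain elongation genes at T2. *CYP79F1* (chr1:5608432-5608731, plus), *CYP79F2* (chr1:5604794-5605093, plus) and *CYP83A1* (chr4:7992380-7992679, minus) are shown because their windows held a MYB element.
BCAT4: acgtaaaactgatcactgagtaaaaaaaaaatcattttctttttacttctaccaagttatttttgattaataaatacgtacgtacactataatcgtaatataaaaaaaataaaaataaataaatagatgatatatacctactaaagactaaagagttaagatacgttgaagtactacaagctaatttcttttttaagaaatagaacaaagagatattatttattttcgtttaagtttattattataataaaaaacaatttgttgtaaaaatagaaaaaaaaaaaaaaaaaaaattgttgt
MAM1: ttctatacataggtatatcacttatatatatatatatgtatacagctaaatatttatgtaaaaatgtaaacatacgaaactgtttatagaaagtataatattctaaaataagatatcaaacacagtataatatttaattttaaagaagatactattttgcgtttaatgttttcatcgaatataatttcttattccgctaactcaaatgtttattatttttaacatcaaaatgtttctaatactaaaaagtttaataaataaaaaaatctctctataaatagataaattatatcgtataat
CYP79F1: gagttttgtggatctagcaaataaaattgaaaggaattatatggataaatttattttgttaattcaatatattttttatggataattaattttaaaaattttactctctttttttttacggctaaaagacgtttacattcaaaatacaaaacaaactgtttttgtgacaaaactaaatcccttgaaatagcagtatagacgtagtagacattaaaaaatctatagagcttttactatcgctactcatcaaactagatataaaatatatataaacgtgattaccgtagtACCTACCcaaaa
CYP79F2: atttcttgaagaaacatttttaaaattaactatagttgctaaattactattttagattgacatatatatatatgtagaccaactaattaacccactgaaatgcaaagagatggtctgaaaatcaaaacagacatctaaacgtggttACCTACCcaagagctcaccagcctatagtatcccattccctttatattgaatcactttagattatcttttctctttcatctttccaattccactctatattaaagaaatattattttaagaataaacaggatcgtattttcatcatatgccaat
CYP83A1: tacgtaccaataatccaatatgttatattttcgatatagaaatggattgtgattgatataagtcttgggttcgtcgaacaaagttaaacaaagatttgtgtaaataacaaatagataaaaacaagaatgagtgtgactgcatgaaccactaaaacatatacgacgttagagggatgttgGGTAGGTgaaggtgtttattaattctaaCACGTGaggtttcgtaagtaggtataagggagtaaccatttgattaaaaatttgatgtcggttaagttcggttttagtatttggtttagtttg

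ACCTACC was found in 3 of the 10 member windows, those of *CYP79F1*, *CYP79F2* and *CYP83A1*, and in 1.41% of 18499 windows of the same length around protein-coding genes of the table. In *CYP79F1* it began 39 bases into the transcribed part, in *CYP79F2* 104 bases and in *CYP83A1* 71 bases before the start. The AC elements ACCAACC and ACCTAAC were in 0 member windows and in 3.41% and 2.77% of all windows. Any of the 3 AC elements searched was in 3 member windows and in 7.34% of all windows. *CYP79F1* and *CYP79F2* are neighboring copies, described below, so their matches may not be separate finds. CACGTG was in the window of 1 member, *CYP83A1*, and in 9.09% of all windows. GAGAC, the core of a sulfur-responsive element and not capitalized above, was in 3 member windows, those of *MYB29*, *SOT18* and *FMO GS-OX4*, and in 32.3% of all windows. These are matches of letters in short windows and do not show binding. *CYP79F1* and *CYP79F2* lie 1183 bases apart on chromosome 1, share 90.7% of their aligned coding bases and have an identical run of 100 bases in their transcripts, so reads could have been placed on the wrong copy. *MAM1* and *MAM3* lie 11144 bases apart on chromosome 5 and share 78.9%, with a longest identical run of 30 bases. *MYB28* and *MYB29* share 68.2%.

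Values are FPKM, the reads on a gene scaled by its length and by library size, which allows levels to be set side by side between genes. Libraries held 4407618 to 11714474 reads. The 3 targeted genes were read in the TMs too. *ATX1* had 1.64 to 7.34 FPKM in TM1 and 1.61 to 5.76 in TM2, against 3.25 to 8.24 in WT. *ATX4* had 2.08 to 4.07 and 1.54 to 4.26, against 3.79 to 5.95, and *ATX3* 3.99 to 7.12 and 3.95 to 7.63, against 2.41 to 6.30. Where the counted reads lay relative to the insertions was not analysed here, so these levels do not check the genotypes. Leaf markers were abundant, and the 5 flower and meristem markers (*AP1*, *AP3*, *AG*, *LFY* and *STM*) were not among the genes of the table. The summed FPKM of 4 senescence markers (*SAG13*, *NIT2*, *WRKY75* and *ORE1*) was 53.6 to 61.8 in the TM1 libraries at T6, against 5.57 to 7.54 in TM2 and 8.03 to 10.1 in WT, so the TM1 pool at T6 stood apart. The same sum was higher than in WT in both isolates at T0, at 1.87 to 5.34 in TM1 and 3.27 to 4.78 in TM2, against 0.294 to 0.977 in WT. It was also higher in both at T2, at 3.49 to 6.48 in TM1 and 3.31 to 5.68 in TM2, against 0.540 to 1.40 in WT. At T4 it was 7.51 to 9.95 in TM1, and TM2, at 3.02 to 5.49, overlapped with WT, at 4.27 to 5.05.

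**Figure D1:**
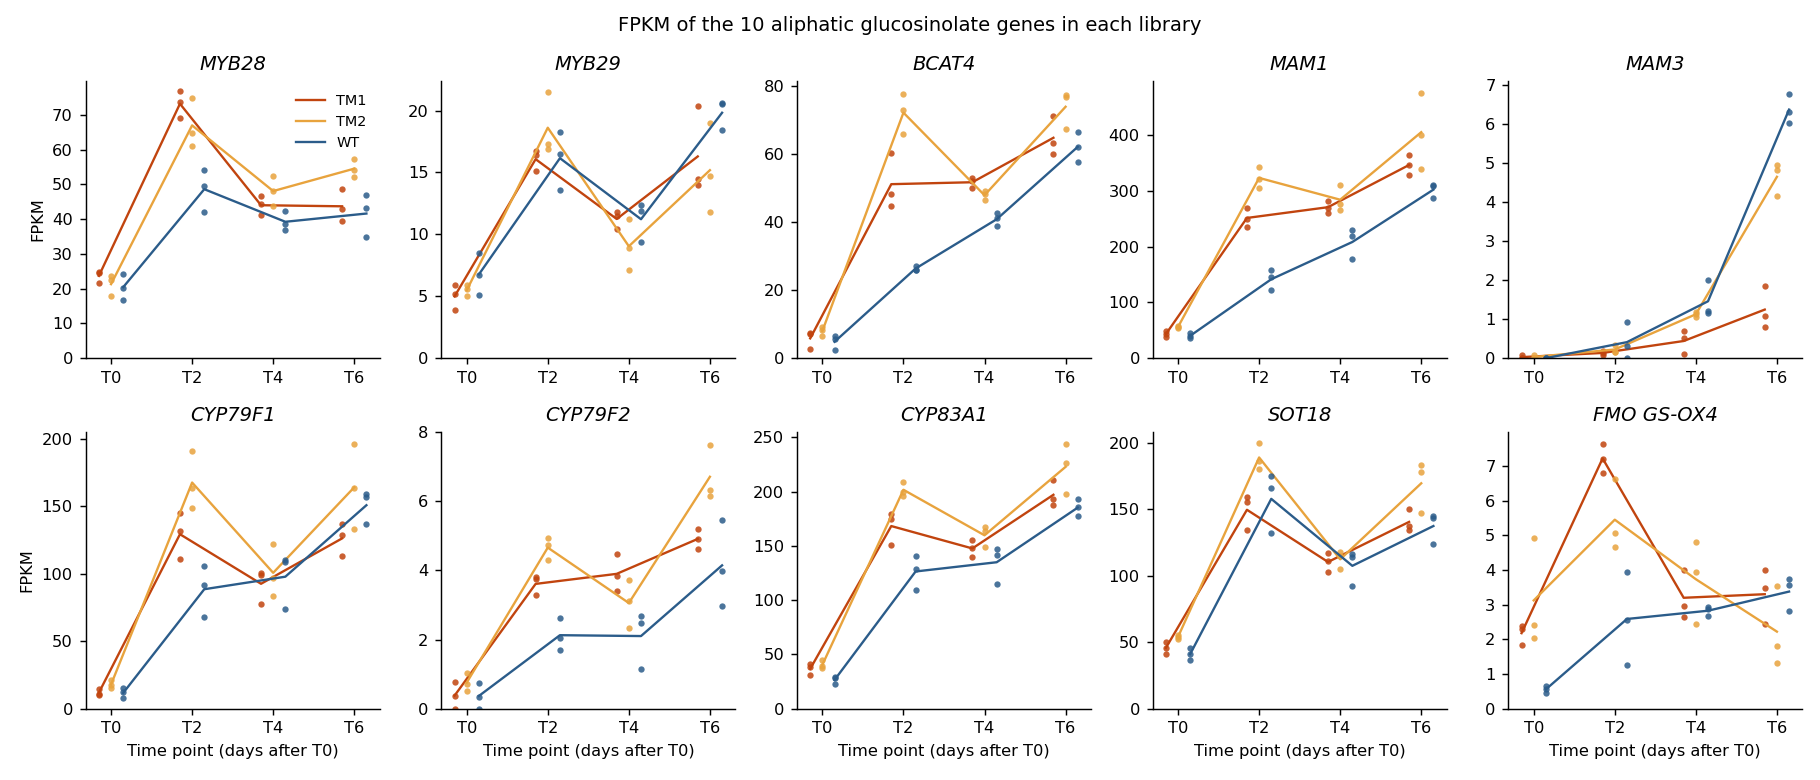
FPKM of each member (vertical axis, linear, from 0) by time point (horizontal axis). Points are libraries, 3 per group, slightly offset by genotype, and lines join the means of TM1, TM2 and WT. In every panel except *FMO GS-OX4* in TM2, the mean at T6 was above that at T0, and the TM points of *BCAT4* and *MAM1* at T2 all lie above those of WT.

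The pathway rose steeply between T0 and T6 in TM1, TM2 and WT. In a bulk leaf sample, more cells of a type and more RNA per cell cannot be told apart. From T0 to T6, 8 of 10 members rose at least 2-fold in TM1, 9 in TM2 and 9 in WT (limma on log2(FPKM + 1), adjusted p under 0.05), and none fell. The same call was made for 11.2% of all 19437 genes in TM1, 10.8% in TM2 and 11.0% in WT, in either direction. The median change of the 10 members was 1.87, 2.28 and 2.34 on the log2 scale in TM1, TM2 and WT, where that of all genes was 0.11, 0.13 and 0.10. The summed FPKM of the members was 944 ± 57.2 at T6 in TM1, against 175 ± 17.0 at T0. In TM2 it was 1119 ± 152 at T6, against 207 ± 8.81 at T0, and in WT 913 ± 30.4 at T6, against 152 ± 21.1 at T0 (SD, n = 3 each).

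For most members, most of this rise on the log2 scale was already present at T2. *MAM3* rose later, from 0.134, 0.222 and 0.410 FPKM at T2 to 1.24, 4.65 and 6.37 at T6 in TM1, TM2 and WT. In WT, *BCAT4* and *MAM1* also went on from 26.3 and 141.5 FPKM at T2 to 62.0 and 302.2 at T6. At T2 against T0, 9 members in TM1, 8 in TM2 and 9 in WT had risen at least 2-fold, beside 9.69%, 9.30% and 6.80% of all genes. The median change of the members from T2 to T4 was -0.31 in TM1, -0.48 in TM2 and 0.12 in WT. *SOT18* was lower at T4 than at T2 in all 3, by -0.43, -0.74 and -0.55 on the log2 scale (limma adjusted p = 0.00334, 5.5e-06 and 1.9e-04 in TM1, TM2 and WT). *BCAT4* and *MAM1* rose from T2 to T4 in WT, by 0.61 and 0.55 (adjusted p = 0.0275 and 2.3e-04), where the changes were 0.03 and 0.11 in TM1 and -0.58 and -0.19 in TM2 (adjusted p = 0.968, 0.589, 0.0593 and 0.298). Between T4 and T6, *MAM3* rose at least 2-fold in TM2 and in WT, and 0 members did so in TM1 by limma, with unadjusted p-values or with limma voom on recovered reads (2.61%, 1.68% and 1.07% of all genes in TM1, TM2 and WT). In TM1 the change of *MAM3* was 0.63 (limma adjusted p = 0.0274). The log2(FPKM + 1) scale understates its ratio of mean FPKM of 2.83, which rests on few reads. With no fold limit 4 members in TM1, 7 in TM2 and 7 in WT rose in that interval, beside 5.44%, 5.21% and 2.71% of all genes.

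Both regulators took the same step. *MYB28*, the main activator of the pathway, had 21.7, 24.4 and 24.9 FPKM at T0, 76.7, 73.6 and 69.2 at T2, 41.1, 44.4 and 46.5 at T4 and 42.9, 48.6 and 39.5 at T6 in TM1. In TM2 it had 23.5, 22.4 and 18.0, then 64.8, 74.9 and 61.1, then 52.3, 43.7 and 48.2, and 57.4, 52.1 and 54.0 at T6. In WT it had 16.8, 24.1 and 20.3, then 54.2, 49.6 and 42.0, then 38.5, 42.4 and 36.8, and 46.8, 34.7 and 43.3 at T6. In TM1 and in TM2 its highest libraries were those at T2, and there all 6 TM libraries were above all 3 of WT. The difference from WT at T2 was 0.59 ± 0.12 for TM1 and 0.46 ± 0.12 for TM2 (log2, SE, limma adjusted p = 4.4e-04 and 0.00616), a ratio of mean FPKM of 1.51 and 1.38. Without library B the adjusted p of TM2 was 0.0771, and without library C 0.0819. At T4 it was lower than at T2 in TM1 and TM2, by -0.72 and -0.47 on the log2 scale (adjusted p = 3.1e-05 and 0.00718), and in WT by -0.30 (adjusted p = 0.0721). Its change from T0 to T6 was 1.32 in TM2, 0.85 in TM1 and, before rounding just under the 2-fold limit, 1.00 in WT.

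*MYB29*, which acts beside MYB28, was lower per length. It had 15.1, 16.7 and 16.4 FPKM in TM1 and 16.9, 21.5 and 17.3 in TM2 at T2, against 18.3, 13.6 and 16.5 in WT, and each isolate overlapped with WT. Its differences from WT lay between -0.39 and 0.19 over the 4 time points and the adjusted p was between 0.154 and 1.00, so no difference passed the test. At T6 4 of 6 TM libraries were below all of WT, which had 20.6, 18.4 and 20.5 FPKM (exact permutation test over 84 arrangements, two-sided, p = 0.0952, where the smallest p it can give is 0.0119). The ratio of mean *MYB28* to mean *MYB29* was 4.55 in TM1 and 3.6 in TM2 at T2, against 3.01 in WT.

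The chain elongation genes *BCAT4* and *MAM1* were higher in both isolates than in WT at T2. *BCAT4* had 44.8, 60.1 and 48.3 FPKM in TM1 and 77.6, 72.9 and 65.7 in TM2 at T2, against 27.1, 26.0 and 25.8 in WT. The groups did not overlap, and the lowest TM library was 44.8 against a highest WT library of 27.1. The mean FPKM was 1.94 times that of WT in TM1 and 2.74 times in TM2, or 0.92 ± 0.21 and 1.42 ± 0.21 on the log2 scale (adjusted p = 0.00109 and 5.6e-06), and without library B the adjusted p of TM1 was 0.0691. At T0 *BCAT4* had 7.12, 7.48 and 2.83 FPKM in TM1 and 6.63, 8.30 and 9.02 in TM2, against 2.38, 6.46 and 5.56 in WT. TM1 overlapped with WT and TM2 lay above it (0.70 ± 0.21, adjusted p = 0.0131, and 0.2 without library A). At T4 all 6 TM libraries, 46.4 to 53.0 FPKM, were still above the 3 of WT, 38.7 to 42.5 (exact permutation p = 0.0119), but the differences of 0.33 and 0.23 had adjusted p of 0.342 and 0.54. At T6 *BCAT4* had 71.0, 59.9 and 63.2 FPKM in TM1 and 76.8, 77.4 and 67.2 in TM2, against 57.6, 66.5 and 62.1 in WT. TM and WT overlapped there. The ratio of mean *BCAT4* at T6 to that at T0 was 11.1 in TM1, 9.25 in TM2 and 12.9 in WT.

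*MAM1*, the synthase for shorter chains, followed the same course. At T0 it had 42.7, 49.2 and 37.7 FPKM in TM1 and 53.6, 58.0 and 56.4 in TM2, against 38.9, 44.6 and 36.7 in WT, and TM2 lay above WT (0.48 ± 0.11, adjusted p = 0.00161). Per length it was the most abundant member at T4 and T6 in every genotype and at T2 in TM1 and TM2, where *SOT18* was higher in WT. At T2 it had 236, 250 and 269 FPKM in TM1 and 342, 305 and 322 in TM2, against 145, 122 and 158 in WT. The TM libraries again lay apart from those of WT, by 0.83 ± 0.11 and 1.19 ± 0.11 on the log2 scale (adjusted p = 8.2e-07 and 1.7e-09), a ratio of 1.78 and 2.28. At T4 it had 281, 270 and 261 FPKM in TM1 and 276, 311 and 266 in TM2, against 219, 229 and 177 in WT, a difference of 0.38 and 0.45 (adjusted p = 0.0155 and 0.00312) that was lost without library A and without library C of every group. At T6 it had 364, 347 and 328 FPKM in TM1 and 475, 401 and 340 in TM2, against 310, 288 and 309 in WT. The 6 TM libraries were above the 3 of WT there too (exact permutation p = 0.0476), with adjusted p of 0.346 in TM1 and 0.0104 in TM2.

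*MAM3*, which makes chains of all lengths, behaved otherwise. At T0 it had 0, 1 and 0 reads in TM1 and 0, 0 and 1 in TM2, against 0, 0 and 0 in WT, and 3 reads in a library were taken as the limit of detection. It reached 1.85, 1.08 and 0.800 FPKM in TM1 and 4.82, 4.16 and 4.96 in TM2 at T6, against 6.31, 6.03 and 6.76 in WT. These were 29, 11 and 10 reads in TM1 and 69, 51 and 68 in TM2, against 109, 127 and 98 in WT. All 6 TM libraries were below all of WT, and TM1 was also below TM2. Against 3 reads in each T0 library, *MAM3* was at least 5.26-fold higher at T6 in TM1, at least 15.3-fold in TM2 and at least 20.0-fold in WT. The difference from WT at T6 was -1.74 ± 0.20 in TM1 (adjusted p = 1.0e-07) and -0.39 ± 0.20 in TM2 (adjusted p = 0.216), so the lower level than in WT passed the test in TM1 alone. TM1 was lower than TM2 by 1.36 ± 0.20 (adjusted p = 3.3e-05), the 1 member of 10 that differed at least 2-fold between the isolates at T6, beside 0.545% of all genes. This call was lost with pseudocounts of 0.1 and 5. The TM1 pool with low *MAM3* was the one with the high senescence markers, and their part in the result was not tested. In TM2 by itself at T6, *MYB28* and *MAM1* were higher than in WT (0.39 and 0.41, adjusted p = 0.029 and 0.0104) and 0 members differed at least 2-fold by limma, with unadjusted p-values or with voom. At T4 the means had the same order, though TM2 and WT overlapped, with 0.119, 0.692 and 0.507 FPKM in TM1 and 1.06, 1.19 and 1.12 in TM2, against 1.16, 1.2 and 2.01 in WT, and the difference of TM1 was -0.78 ± 0.20 (adjusted p = 0.00591). *MAM1* exceeded *MAM3* 278-fold in TM1 and 87.2-fold in TM2 at T6, against 47.5-fold in WT, by mean FPKM.

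Of the core structure genes, *CYP79F1* and *CYP83A1* were higher in both isolates at T2, *CYP79F2* passed the test in TM2 alone and *SOT18* in neither. *CYP79F1*, the entry enzyme for short and long chains, had 111, 145 and 132 FPKM in TM1 and 164, 149 and 191 in TM2 at T2, against 106, 67.8 and 91.7 in WT. The groups were close but did not overlap, and the difference was 0.56 ± 0.19 and 0.93 ± 0.19 (adjusted p = 0.0328 and 6.3e-04). The call was lost without library B (adjusted p = 0.417 in TM1) and without library C (0.147), with median ratio scaling (0.0647), in a fit to the T2 libraries alone (0.0502) and with eBayes without a trend (0.0511). At T4 it had 99.3, 101 and 77.9 FPKM in TM1 and 83.7, 122 and 97.1 in TM2, against 110, 109 and 74.3 in WT, and at T6 137, 129 and 113 in TM1 and 196, 164 and 133 in TM2, against 159, 157 and 137 in WT. TM and WT overlapped at both times. At T0 it had 10.7, 14.8 and 10.3 FPKM in TM1 and 17.3, 21.0 and 15.7 in TM2, against 7.68, 15.5 and 12.1 in WT, and TM2 lay above WT (0.61 ± 0.19, adjusted p = 0.0208, but 0.293 without library A and 0.0619 without library C). The T0 differences of *BCAT4* and *CYP79F1* in TM2 also missed the test with voom (adjusted p = 0.0749 and 0.0912) and in a fit to the T0 libraries alone (0.32 and 0.172). *CYP79F1* at T2 was at 10.8 and 9.33 times its T0 mean in TM1 and TM2, against 7.53 times in WT.

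*CYP79F2*, its copy for long chains, was read far less, at 3.28, 3.80 and 3.74 FPKM in TM1 and 4.29, 4.93 and 4.74 in TM2 at T2, against 1.71, 2.05 and 2.62 in WT. The 6 TM libraries, of 40 to 62 reads, were above those of WT, of 26 to 37. The test passed in TM2 (0.86 ± 0.23, adjusted p = 0.00497) and not in TM1 (0.57 ± 0.23, adjusted p = 0.0604). Mean FPKM of *CYP79F1* exceeded that of *CYP79F2* 35.9-fold in TM1 and 36.0-fold in TM2 at T2, against 41.7-fold in WT.

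*CYP83A1*, the aldoxime oxidase, was the core gene that was higher in both isolates at T0 as well. It had 41.6, 38.2 and 30.7 FPKM in TM1 and 37.6, 44.9 and 39.1 in TM2 at T0, against 22.4, 29.3 and 27.9 in WT, and no TM library reached down to WT. The difference was 0.46 ± 0.11 and 0.60 ± 0.11 (adjusted p = 0.0057 and 1.5e-04). It was lost without library A, without library B and in a fit to the T0 libraries alone. At T2 *CYP83A1* had 151, 175 and 179 FPKM in TM1 and 196, 200 and 209 in TM2, against 141, 109 and 129 in WT, a difference of 0.41 and 0.68 (adjusted p = 0.00592 and 3.3e-05) that missed the test in TM1 without library B (adjusted p = 0.236) and without library C (0.0542). At T4 and T6 TM and WT overlapped and the adjusted p was at least 0.132.

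*SOT18*, which closes the core, had 134, 159 and 155 FPKM in TM1 and 200, 180 and 186 in TM2 at T2, against 175, 132 and 166 in WT. TM1 lay within the range of WT and TM2 above it, with differences of -0.07 ± 0.11 and 0.27 ± 0.11 (adjusted p = 0.695 and 0.0727). Its step from T0 to T2 was 3.27-fold in TM1, 3.49-fold in TM2 and 3.83-fold in WT by mean FPKM. At T0, 5 of 6 TM libraries were above WT (exact permutation p = 0.0476), and the test passed in TM2 only (0.39 ± 0.11, adjusted p = 0.00743, and 0.117 without library A).

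*FMO GS-OX4*, the side chain oxygenase, had the largest difference of the members at T0. It had 2.38, 2.31 and 1.85 FPKM in TM1 and 2.41, 2.04 and 4.92 in TM2 at T0, against 0.572, 0.462 and 0.650 in WT. These were 23 to 30 reads in TM1 and 16 to 54 in TM2, against 4 to 7 in WT, so the WT level rests on few reads. All TM libraries were above WT, by 1.02 ± 0.26 and 1.34 ± 0.26 (adjusted p = 0.00617 and 1.8e-04), which on the log2(FPKM + 1) scale understates a ratio of mean FPKM of 3.88 and 5.57. At T2 it had 7.63, 6.81 and 7.20 FPKM in TM1 and 5.06, 6.63 and 4.65 in TM2, against 1.27, 2.56 and 3.94 in WT, again without overlap (1.27 and 0.91, adjusted p = 3.1e-04 and 0.00919). In TM2 the adjusted p at T2 was 0.141 without library A and 0.168 without library B. At T4 it had 3.99, 2.64 and 2.97 FPKM in TM1 and 2.45, 4.82 and 3.94 in TM2, against 2.87, 2.68 and 2.93 in WT, and at T6 4.00, 3.48 and 2.43 in TM1 and 3.53, 1.81 and 1.33 in TM2, against 3.75, 2.83 and 3.56 in WT. The genotypes overlapped at both times. It was the 1 member that did not rise from T0 to T6 in either isolate (0.42 for TM1 and -0.35 for TM2, adjusted p = 0.198 and 0.297), where it rose by 1.48 in WT (adjusted p = 1.8e-05).

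**Figure D2:**
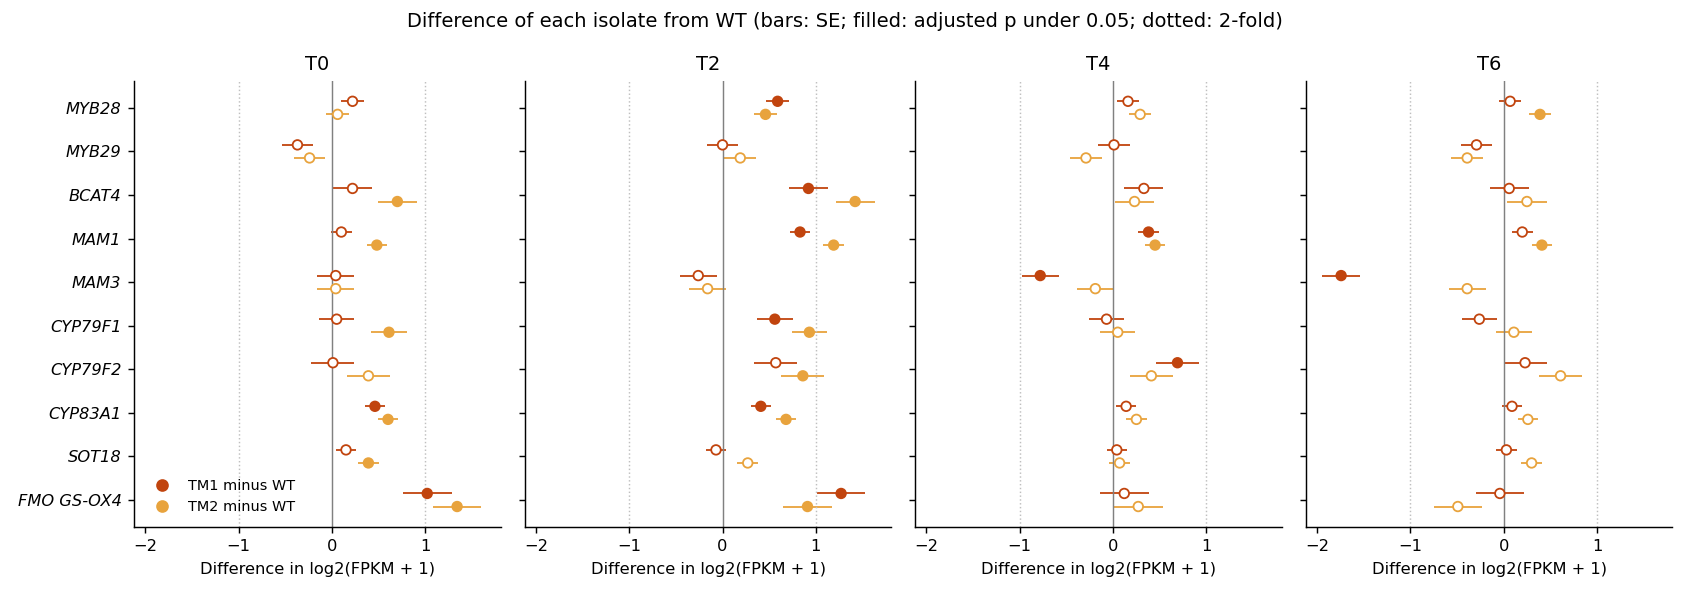
Difference of TM1 and of TM2 from WT (horizontal axis, log2(FPKM + 1)) for each member at each time point, with SE from limma. Filled points have an adjusted p under 0.05 and dotted lines mark 2-fold. The filled points of both isolates are most numerous at T2, with 6 members, and 0 members have both points filled at T6.

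With no fold limit, 2 of 10 members differed at T0, 6 at T2, and 1 and 0 at T4 and T6, between WT and both isolates (adjusted p under 0.05), each of them higher in TM. All genes gave 9.87%, 17.7%, 8.26% and 5.08% by this rule. At T6 the count was also 0 with unadjusted p-values and with limma voom. The 6 members at T2 were *MYB28*, *BCAT4*, *MAM1*, *CYP79F1*, *CYP83A1* and *FMO GS-OX4*. Without library A of every group 5 of the 6 were called, without library C 3, and without library B only *MAM1*. The direction of the mean difference was kept in each case.

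With a change of at least 2-fold in both isolates also required, which is the threshold used for the lists below, 1 member passed at T0, *FMO GS-OX4*, and 0 passed at T2, T4 and T6. The shares of all genes were 1.39%, 2.19%, 1.53% and 1.01%. The study had already listed *FMO GS-OX4* as bolting-associated, partly from these same libraries, so its call is not independent of that list. With unadjusted p-values the counts at T2, T4 and T6 were also 0. With limma voom they were 1 at T2, *FMO GS-OX4*, and 0 at T4 and T6. The T0 call of *FMO GS-OX4* was lost without library A and without library B (adjusted p = 0.13 in TM1), in a fit to the T0 libraries alone, with a pseudocount of 5 and under quantile scaling. Without library A and without library C 1 member passed at T2. The 6 TM libraries were beyond the 3 of WT for 2 members at T0, for 7 at T2, and for 2 at T4 and T6 each (at T6 *MAM1* above and *MAM3* below), beside 13.4%, 27.9%, 17.6% and 17.4% of all genes. The 7 members at T2 were the 6 above and *CYP79F2*. The median difference of the 10 members at T2 was 0.56 in TM1 and 0.77 in TM2, where that of all genes was 0.07 and 0.09. At T6 it was 0.05 and 0.25, where that of all genes was 0.06 and 0.07.

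The median difference of the members was lower at T6 than at T2, while *SOT18* in TM2 had 0.27 at T2 and 0.30 at T6. The change of the difference from T0 to T6 passed in both isolates for 0 members by limma, with 2 at unadjusted p-values and 0 with voom (2.84% of all genes). From T2 to T6, a contrast chosen after the values had been seen, it passed for 2 members, *MAM1* (-0.64 ± 0.16 for TM1 and -0.78 ± 0.16 for TM2, adjusted p = 0.00566 and 8.9e-04) and *FMO GS-OX4* (-1.30 ± 0.36 and -1.40 ± 0.36, adjusted p = 0.015 and 0.00957), beside 6.21% of all genes. Without library A and without library B 0 members passed, and without library C 1. *BCAT4* had -0.86 ± 0.29 and -1.17 ± 0.29 (adjusted p = 0.0535 and 0.00782). In a fit to the 12 pool means with time point as a term, 8 TM pools against 4 WT pools, 0 members passed the 2-fold test (0.921% of all genes), also with unadjusted p-values. Without the fold limit 4 members were higher in TM (12.7% of all genes), *BCAT4* by 0.52, *MAM1* by 0.51, *CYP79F2* by 0.47 and *CYP83A1* by 0.36 on the log2 scale (limma adjusted p = 0.0498, 0.0245, 0.0335 and 0.0256).

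TM1 and TM2 were close but not alike. Over the 10 members the median of TM1 minus TM2 was -0.28 at both T0 and T2, then -0.09 at T4 and -0.24 at T6, where that of all genes was 0.00, -0.01, 0.00 and -0.01. Its value was above 0 for 1, 2, 3 and 2 members at the 4 times, beside 50.5%, 47.2%, 50.6% and 47.6% of all genes. Most members moved together, so these are not separate observations. At T0, T2 and T4, 0 members passed the 2-fold test between the isolates, with unadjusted p-values and with voom as well (0.401%, 0.278% and 1.09% of all genes). With no fold limit, unadjusted p-values under 0.05 were found for 4, 4 and 1 members at these times, all lower in TM1, beside 17.0%, 8.59% and 18.2% of all genes in either direction. The summed FPKM of 5 vascular markers was 312 to 370 in TM1 and 285 to 345 in TM2 at T2, against 258 to 313 in WT, and that of 5 mesophyll markers was 12170 to 12892 and 10340 to 11385, against 12181 to 14114. With no fold limit 3 of the 5 vascular markers were higher in both isolates at T2, beside 17.7% of all genes in either direction, and their median difference was 0.58. At T0 the vascular sum was 212 to 273 in TM1 and 296 to 365 in TM2, against 210 to 249 in WT. The part of these markers in the differences of the members was not tested.

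**Figure D3:**
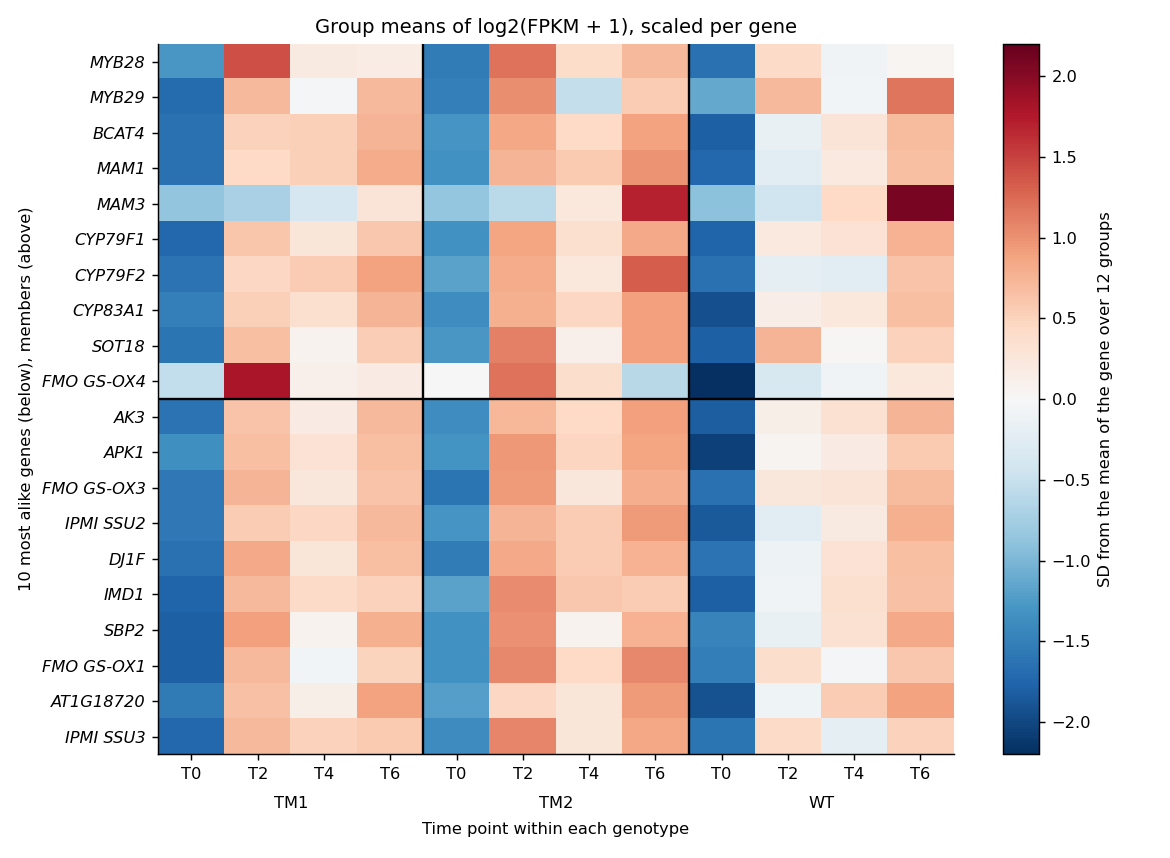
Group means of log2(FPKM + 1), scaled per gene to SD from its own mean over the 12 groups (color), for the 10 members above the line and the 10 most alike genes below it. Columns are time points within TM1, TM2 and WT. The T0 columns are blue in nearly every row, and *MAM3* and *FMO GS-OX4* differ from the other members.

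Over the 12 group means, the pattern of most members was nearly the same. The correlation of a member with the mean of the other 9 was 0.99 for *CYP79F1* and *CYP83A1*, 0.98 for *BCAT4*, 0.97 for *MAM1*, 0.96 for *CYP79F2* and *SOT18*, 0.90 for *MYB28* and 0.88 for *MYB29*. It was 0.60 for *FMO GS-OX4* and 0.51 for *MAM3*. These 12 points share genotypes and harvest days and the step after T0, and the values are a description. Among 16546 other genes with a mean of at least 1 FPKM, the 10 most alike to the mean of the members had correlations of 0.976 to 0.994. They were *AK3* (AT3G02020), *APK1*, *FMO GS-OX3*, *IPMI SSU2*, *DJ1F*, *IMD1*, *SBP2*, *FMO GS-OX1*, AT1G18720 and *IPMI SSU3*. Of the 10, 6 are glucosinolate genes of the lists: *IPMI SSU2*, *IPMI SSU3* and *IMD1* of chain elongation, the side chain oxygenases *FMO GS-OX1* and *FMO GS-OX3*, and *APK1*, which makes the sulfate donor used by SOT18. *AK3*, an aspartate kinase by its name, had the highest correlation, with a mean of 89.2 FPKM in TM1, 110 in TM2 and 92.7 in WT at T6, against 7.40, 9.82 and 5.79 at T0.

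**Figure D4:**
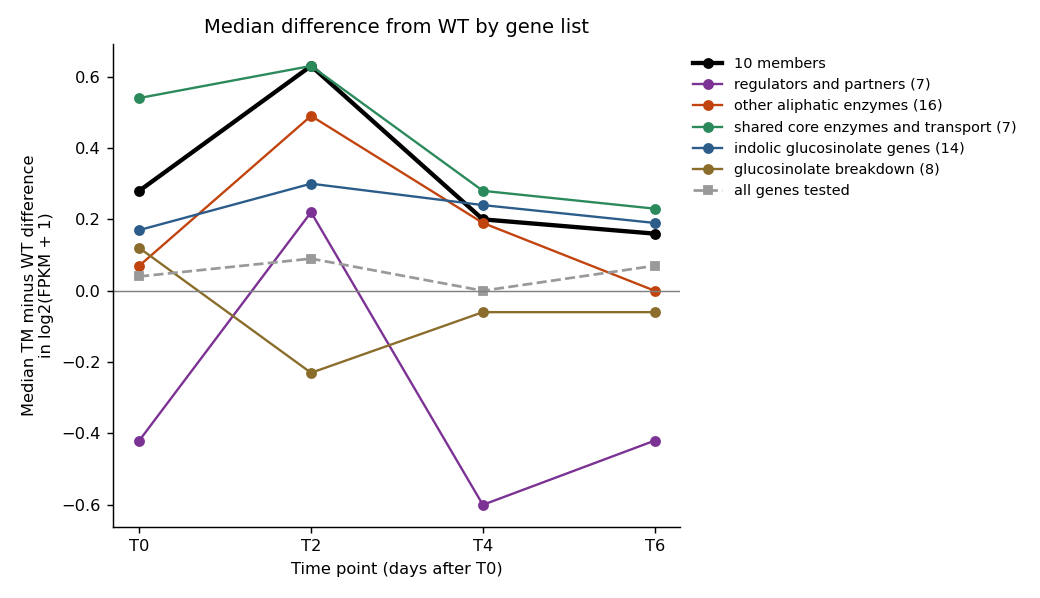
Median difference of TM from WT (mean of TM1 and TM2, log2(FPKM + 1), vertical axis) by time point (horizontal axis) for the members, 5 related gene lists and all 19437 genes. Numbers in parentheses are genes of the list in the table. The members and the shared core enzymes both stand at 0.63 at T2, where all genes stand at 0.09.

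The rest of the pathway was read from lists that were chosen with earlier results known. Of 19 other aliphatic enzymes 16 were in the table, and 10 in TM1, 10 in TM2 and 11 in WT rose at least 2-fold from T0 to T6, with 0 falling. Against WT, 1 passed the threshold, at T2 (2.19% of all genes): *IPMI SSU2*, the small subunit of an isomerase of chain elongation. It had 303 ± 31.8 FPKM in TM1 and 367 ± 55.8 in TM2 at T2, against 143 ± 30.3 in WT (SD, n = 3 each, log2 1.10 and 1.37, limma adjusted p = 4.3e-06 and 1.6e-07). At T6 it had 355 and 436 FPKM, against 379 in WT, the course of *BCAT4* and *MAM1*. With no fold limit 6 of the 16 were higher in both isolates at T2 and 0 lower. Of 7 shared core and transport genes, with no fold limit, 5 were higher in both isolates at T2, 4 at T0, and 3 and 2 at T4 and T6. All genes gave 17.7% at T2, 9.87% at T0, 8.26% at T4 and 5.08% at T6 by this rule, in either direction. The median of the shared core list was 0.63 at T2, as that of the members. The share of all genes past the threshold at any time was not computed for these lists or those below.

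With no fold limit, 2 of 7 regulators and partners were lower in both isolates at T0, 2 higher at T2, 3 lower at T4 and 2 lower at T6. All genes gave 9.87%, 17.7%, 8.26% and 5.08% by this rule, in either direction. Past the threshold was 1 gene, at T4 (1.53% of all genes): *SDI2*, known as a sulfur deficiency-induced repressor of glucosinolate synthesis through MYB28. It was lower in TM at T4, with 31.7 ± 2.25 FPKM in TM1 and 15.5 ± 1.71 in TM2, against 76.5 ± 3.06 in WT (log2 -1.25 and -2.23, limma adjusted p = 1.5e-08 and 1.2e-14). At T2 it had 25.8 ± 1.21 FPKM in TM1 and 20.4 ± 1.73 in TM2, against 14.6 ± 0.736 in WT, with differences of 0.78 and 0.45 (adjusted p = 2.7e-05 and 0.0103). Its direction at T2 was the opposite of that at T4, and at T0 and T6 it was lower in both isolates too (adjusted p of 0.0266 at most), without passing the fold limit. Without library C 2 genes of this list passed the threshold.

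The tryptophan-derived indolic branch, read from 14 of 16 genes in the table, had no common time course. From T0 to T6, 5 rose and 1 fell in TM1, 4 rose and 1 fell in TM2, and 5 rose and 3 fell in WT. At T2, with no fold limit, 6 of these 14 were higher in both isolates than in WT and 1 was lower, beside 17.7% of all genes in either direction. The median difference of this branch at T2 was 0.30, where that of all genes was 0.09, so higher levels in TM at T2 were not confined to aliphatic genes. Its 2 genes past the threshold against WT, 1 at T4 and 1 at T6 (1.53% and 1.01% of all genes), were methyltransferases that modify the indole ring. They are close copies, so that reads could have been placed on the wrong one. *IGMT1* had 28.7 ± 1.92 FPKM in TM1 and 30 ± 3.01 in TM2 at T6, against 13.3 ± 1.77 in WT, and *IGMT2* had 19.9 ± 1.40 and 12.0 ± 1.41 at T4, against 4.73 ± 0.507 in WT. With median ratio scaling 1 of the indolic genes passed the threshold, and without library A 4. Of 12 breakdown genes 8 were in the table. With no fold limit, 2 were higher and 2 lower in both isolates at T0, and 4, 3 and 3 were lower at T2, T4 and T6. Past the threshold were 2 genes, both lower in TM, 1 of them at T4 and both at T6 (1.53% and 1.01% of all genes). *TGG1*, a major leaf myrosinase, had 154 ± 17.1 FPKM in TM1 and 187 ± 10.9 in TM2 at T6, against 393 ± 9.57 in WT (log2 -1.35 and -1.07, limma adjusted p = 2.0e-13 and 5.0e-11). It was also lower at T0, with 598 ± 31.0 and 617 ± 24.0 FPKM, against 808 ± 35.7 in WT. *ESM1*, which favors isothiocyanates over nitriles among the products, had 47.0 ± 0.414 FPKM in TM1 and 39.4 ± 4.63 in TM2 at T4, against 121 ± 2.80 in WT (log2 -1.34 and -1.60, adjusted p = 1.5e-11 and 1.0e-13). The mesophyll markers were also lower in TM at T4, at 9960.6 to 10811 summed FPKM in TM1 and 8630.5 to 9039.3 in TM2, against 12199 to 13578 in WT, and their part in these 2 results was not tested.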

How the data were processed

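Leaf 6 RNA was sequenced in 36 libraries, 3 from each of 12 pools. The authors sequenced directional libraries (BrAD-seq) and aligned them with Rsubread to TAIR10. NOISeq gave them FPKM, and HTSFilter removed weakly expressed genes. As deposited, FPKM of 19437 genes entered every test. Values were whole multiples of the value of 1 read in every library (largest distance 7.85e-05 reads), which gave reads per gene and depth, used for limits of detection and 1 alternative only. Sequencing depth gives counting error only.

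Differences were estimated by limma 3.58.1, run in R 4.3.3 on log2(FPKM + 1) with 1 mean per group and trended eBayes. The Benjamini-Hochberg adjustment covered all genes of a contrast. The threshold against WT was an adjusted p under 0.05 and a change of at least 2-fold in both isolates, in the same direction. The fit was tested on simulated data. Exact permutation tests, two-sided, used the 84 arrangements of 6 TM and 3 WT libraries (Python 3.11.15, numpy 2.4.6, pandas 2.3.3), and figures were drawn with matplotlib 3.10.9. Windows around gene starts came from the TAIR10.1 genome and annotation of RefSeq.

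The members and lists were chosen with earlier results of these data known. Genes named were the 10 members, from each list up to 3 genes past the threshold with the largest mean change, the 10 most alike genes and the targeted genes. Alternatives were pseudocounts of 0.1 and 5, a mean of at least 1 FPKM, median ratio and quantile scaling, leaving out library A, B or C in turn, a block for the letter, eBayes without a trend, voom on recovered reads, the libraries of 1 time point and a fold limit of 1.5. Each isolate alone and T2 as the baseline were added after seeing the data. Library letters shared no deviations (mean correlation 0.0088 over 36 pairs), so they were not treated as pairs.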

Additional observations from a re-analysis of the deposited data

Results flagged for a closer look

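The difference of *MAM1* from WT was smaller at T6 than at T2, by -0.64 in TM1 and -0.78 in TM2 on the log2 scale, and that of *FMO GS-OX4* by -1.30 and -1.40. Both were singled out because the change of the difference between time points itself passed the test in both isolates (limma, adjusted p = 0.00566 and 8.9e-04 for *MAM1*, 0.015 and 0.00957 for *FMO GS-OX4*). The contrast was chosen after the values had been seen, and 6.21% of all genes passed it. Neither gene passed without library A or without library B. *MAM1* had 251 and 323 FPKM in TM1 and TM2 at T2, against 141.5 in WT, and 346 and 405 at T6, against 302.2. *FMO GS-OX4* had 7.22 and 5.45 FPKM at T2, against 2.59, and 3.30 and 2.22 at T6, against 3.38. *MAM3* at T6 was singled out because the isolates differed, TM1 minus TM2 being -1.36 (limma adjusted p = 3.3e-05), with 1.24 ± 0.544 FPKM in TM1 and 4.65 ± 0.426 in TM2 (SD, n = 3 each), against 6.37 ± 0.370 in WT. The 2-fold call between the isolates was lost with pseudocounts of 0.1 and 5.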

How the results depend on the processing

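Of 480 values of single members under 12 alternatives, 456 kept their direction and their side of an adjusted p of 0.05 in both isolates, whatever their fold, 19 lost and 5 gained such a p, and 0 changed direction. Leaving out each library letter in turn gave 0 to 2 members with such a p at T0, 1 to 5 at T2 and 0 to 1 at T4. It gave 0 to 1 past the threshold at T0, 0 to 1 at T2, and 0 to 1 whose difference changed from T2 to T6. With a pseudocount of 0.1, 1 member passed the threshold at T2, 0 differed between TM1 and TM2 at T6 and 1 changed its difference from T0 to T6. With a pseudocount of 5, 0 passed at T0, 0 differed between the isolates at T6, 1 (*MAM3*) had an adjusted p under 0.05 at T6 and 4 changed from T2 to T6. Under quantile scaling 0 passed at T0. With a mean of at least 1 FPKM 4 changed from T2 to T6, and with voom 4, where 1 passed the threshold at T2. In fits to 1 time point 0 passed at T0 and 0 had an adjusted p under 0.05 there, and 2 had one at T4. A fold limit of 1.5 gave 3 at T2. TM1 alone against WT gave 1 at T2 and 1 at T6, and TM2 alone 2 at T2. The counts of members that rose from T0 to T6 stayed within 1.5 times of 8, 9 and 9 in every alternative that could give them. The cause of these moves was not tested. With the library letter as a replicate block the counts past the threshold were 1 at T0 and 0 at T2, T4 and T6, and 8, 9 and 9 members rose from T0 to T6, and 3 members changed their difference from T2 to T6 in place of 2, so the block changed no other call. Median ratio scaling lowered the median shift at T2, over genes with a mean of at least 1 FPKM, to 0.01 in both isolates, against 0.09 in TM1 and 0.10 in TM2 as deposited, and left 5 of the 6 members called at T2, without *CYP79F1*. Few reads limit *MAM3*, *CYP79F2* and *FMO GS-OX4*, and 1 pool per group limits every comparison.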
